A study of Mus musculus with 6 samples.

Results

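Tmem26, Lrrc2, Pbxip1 and 1700036A12Rik are 4 little-studied genes of the 18193 named on the array, and they were chosen by their higher intensity in retinas lacking Onecut2. They were measured by all probe sets that the platform annotation assigns to one of these symbols, 7 of 45037 in all: a pair each for Tmem26, Lrrc2 and Pbxip1 and 1 for 1700036A12Rik. The arrays came from adult mouse retina, 3 from knockout mice without Onecut2 (OC2-KO) and 3 from littermates carrying the wildtype gene (OC2-WT), and the comparison asks what differs in the mature retina when Onecut2 is lost. The knockout is present in all tissues, many such mice die soon after birth per the study, so the arrays hold survivors, and the labels give the age only as adult and no strain or sex. Because the members were taken from this same contrast of genotypes, their differences are given as a description, without a test.

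Onecut2 is a transcription factor with a cut domain and a homeodomain, known in the retina for its part in forming horizontal cells, the interneurons that connect photoreceptors sideways. Tmem26 encodes a protein that crosses the membrane several times and is best known as a surface marker of beige fat cells. Lrrc2 encodes a protein with leucine-rich repeats, short motifs that often bind other proteins, and it is known mainly from heart and skeletal muscle. The Pbxip1 product binds PBX homeodomain factors and also interacts with oestrogen receptors. 1700036A12Rik has no described product, and the gene table of GRCm38.p6 lists it as a long non-coding RNA. The members are therefore 3 protein-coding genes and 1 non-coding gene, on chromosomes 10, 9, 3 and 9.

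The promoters of the 4 genes are shown because the genes were grouped by a shared direction, so that their sequences can be set side by side. Each runs from 250 bases before to 50 bases after the gene start, 5′ to 3′, as given by RefSeq on GRCm38.p6, and all 4 genes matched an entry. Capitals mark matches to the motifs named after the sequences.
Tmem26, chr10:68723496-68723795, plus strand: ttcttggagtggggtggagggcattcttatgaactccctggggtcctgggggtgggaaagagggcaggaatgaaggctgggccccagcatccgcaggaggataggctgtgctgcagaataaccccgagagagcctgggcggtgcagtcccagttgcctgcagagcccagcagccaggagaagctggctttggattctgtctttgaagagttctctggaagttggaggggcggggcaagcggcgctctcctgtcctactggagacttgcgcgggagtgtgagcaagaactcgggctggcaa
Lrrc2, chr9:110951295-110951594, plus strand: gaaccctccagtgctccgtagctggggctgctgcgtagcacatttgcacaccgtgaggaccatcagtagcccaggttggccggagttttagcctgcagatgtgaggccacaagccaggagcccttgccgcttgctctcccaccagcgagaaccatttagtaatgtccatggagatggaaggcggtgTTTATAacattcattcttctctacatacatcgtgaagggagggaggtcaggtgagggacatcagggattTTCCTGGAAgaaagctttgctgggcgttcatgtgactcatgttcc
Pbxip1, chr3:89436454-89436753, plus strand: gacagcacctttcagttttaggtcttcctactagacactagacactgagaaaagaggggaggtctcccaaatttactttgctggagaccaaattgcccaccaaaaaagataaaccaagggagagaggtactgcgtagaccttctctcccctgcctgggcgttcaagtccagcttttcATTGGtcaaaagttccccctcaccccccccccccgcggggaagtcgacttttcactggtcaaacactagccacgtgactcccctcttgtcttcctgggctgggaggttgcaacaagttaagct
1700036A12Rik, chr9:60767659-60767958, plus strand: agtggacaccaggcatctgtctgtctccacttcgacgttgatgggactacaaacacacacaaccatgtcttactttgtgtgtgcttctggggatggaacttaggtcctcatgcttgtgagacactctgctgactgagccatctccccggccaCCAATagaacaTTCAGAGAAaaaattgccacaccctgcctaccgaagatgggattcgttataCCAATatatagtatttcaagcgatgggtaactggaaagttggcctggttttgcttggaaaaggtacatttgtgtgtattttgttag

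Both strands of these windows were searched for ATTGAT and for ATCGAT, core letters of the site that Onecut factors bind, and neither was found in any of the 4. Of 32851 promoters of the same length, 7.54% hold ATTGAT and 0.925% hold ATCGAT. The letters TTCNNNGAA, the palindrome that STAT factors bind, occur in Lrrc2 at bases 256 to 264 of the window and in 1700036A12Rik at bases 164 to 172, against 8.30% of all promoters. TTGCNNAA, a loose form of the C/EBP site, was in none of the 4 and is in 10.8% of promoters. CCAAT, the box that NF-Y binds, was found on the opposite strand of Pbxip1 at bases 178 to 182 and at both 153 to 157 and 215 to 219 of 1700036A12Rik, and 37.4% of promoters hold it. TATAAA, the TATA box, held by 13.6% of promoters, was found on the opposite strand of Lrrc2 at bases 187 to 192. None of these motif matches overlapped another. GC content was 60.7% for Tmem26, 53.7% for Lrrc2, 51.7% for Pbxip1 and 45.7% for 1700036A12Rik, where the median over all promoters was 52.7%, and the middle 2 quartiles ran from 45.7% to 61.7%. The 4 windows thus lay within the common range of base composition, and a match or its absence says nothing about binding.

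Values are log2 intensities, as scaled on each array by the authors, and a probe set was kept for fits where the mean of either genotype was above 7. That left 21176 probe sets, among them 6 of the 7 members. The exception was 1434583_at of Tmem26. The 3 Onecut2 probe sets, which detect its 3′ end, were higher in OC2-KO by 2.27 to 2.84. On each of them every OC2-KO array lay above every OC2-WT array, so they divide the arrays as labelled. The study reports this rise from the same arrays, and a rise does not show that Onecut2 was lost. Arrays carry the numbers 1, 2 and 3 in each genotype, and arrays of the same number varied together. The difference between 3′ and 5′ probe sets of Actb, a sign of RNA breakdown, was 2.95 and 3.39 on the arrays of number 3 and 0.71 to 1.41 on the other 4. The arrays of number 3 also differed in sex, with Xist at 14.53 in OC2-WT and 7.16 in OC2-KO, while both arrays of number 1 had low and both of number 2 high Xist. Limma with Benjamini-Hochberg adjustment called 0 of the 21176 probe sets (0%). At an unadjusted p of 0.05 limma counted 209 and the methods' t-test 300, which also called 0 after adjustment. Whether the 6 arrays stand for 6 animals is not stated in the labels. Each genotype held arrays with low and with high Xist, so its arrays were not all from a single animal. The p-values measure the spread between arrays, which may be technical in part.

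Every OC2-KO array was above every OC2-WT array in 6 of the 7 member probe sets, and in 5 of the 6 kept. Among all probe sets kept, 364 or 1.72% had such a separation upwards. Lrrc2 on 1453628_s_at was the exception, with 1 OC2-KO array inside the wildtype range. The differences of the 7 probe sets ran from 0.65 to 2.41 on the log2 scale, with a median of 1.28, against a median of -0.0084 over the kept probe sets. In whole retina, more cells of a type and more RNA per cell cannot be told apart. These counts restate how the members were picked, and nothing is read from them.

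**Figure D1:**
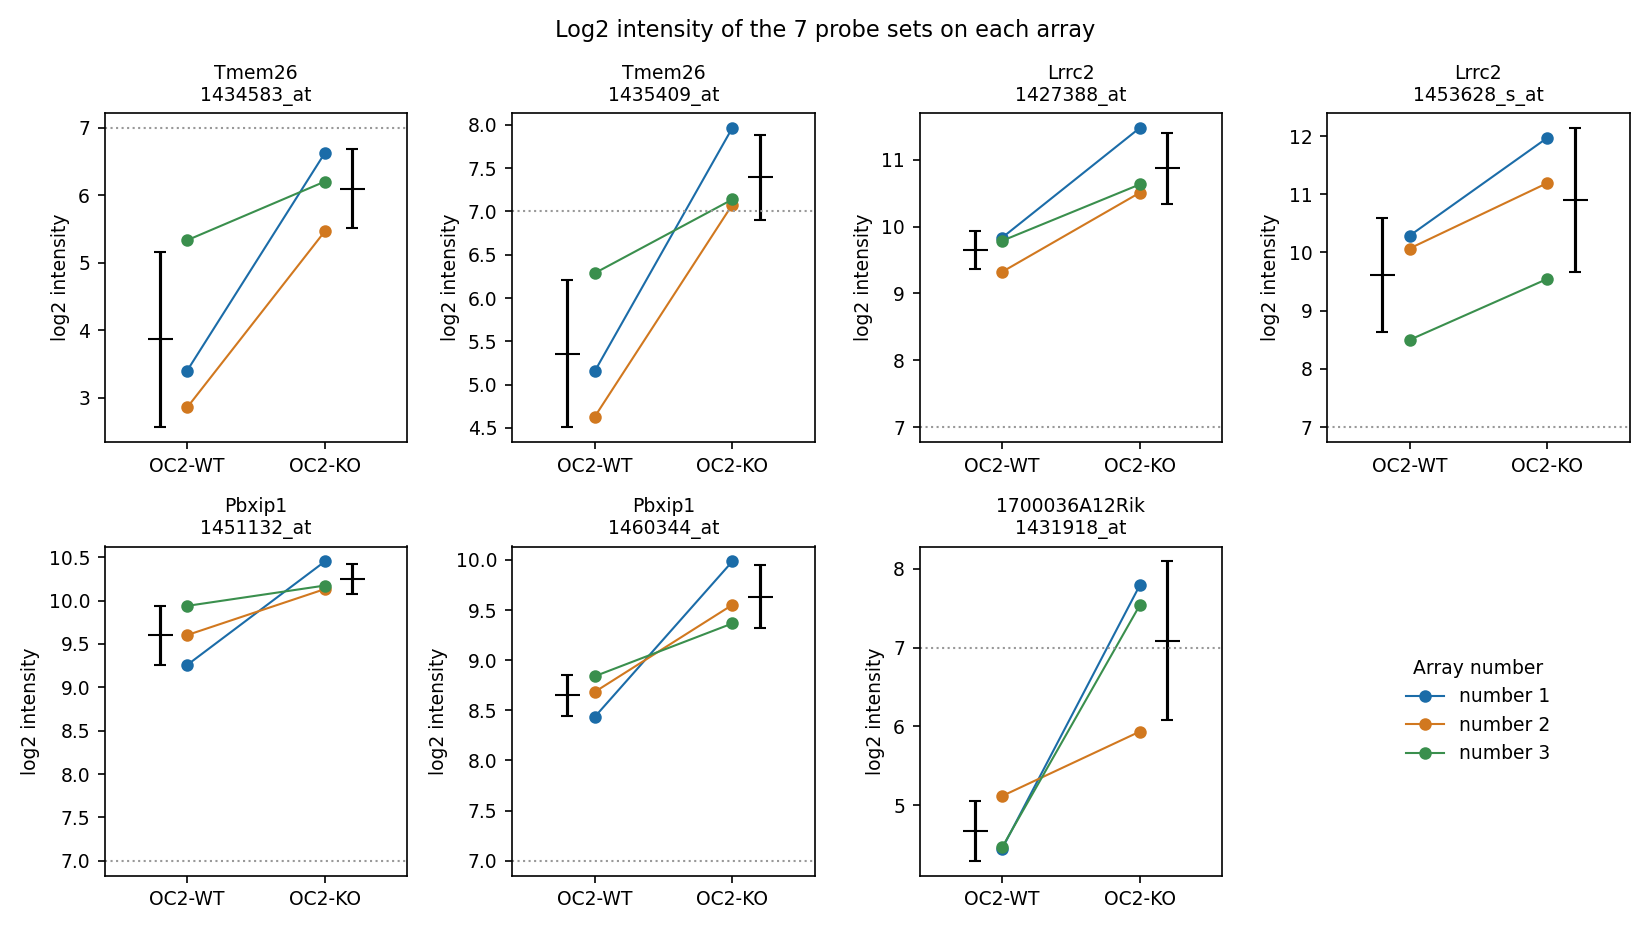
Log2 intensity (vertical axis, its own scale in each panel) of each member probe set by genotype (horizontal axis), with a point for each array, a line joining arrays of the same number, black marks for the mean and SD of 3 arrays, and a dotted line at the filter of 7. All 21 lines rise from OC2-WT to OC2-KO, and the OC2-KO array of number 1 is the highest of the 6 in all 7 panels. The members were chosen on this difference, so the rise is not a result.

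Tmem26 was below or near the filter in both genotypes. On 1435409_at the wildtype arrays 1, 2 and 3 gave 5.15, 4.63 and 6.29, and the knockout arrays gave 7.96, 7.08 and 7.14. No wildtype array reached 7, and all 3 OC2-KO arrays passed it. The wildtype mean was 5.36 ± 0.85 and the knockout mean 7.39 ± 0.49 (SD, n = 3), a difference of 2.04 ± 0.46 (SE) or 4.10-fold. The lowest OC2-KO array stood 0.79 above the highest wildtype array. Detection calls were not used here, so whether the low wildtype values exceed background is not known, and the fold is uncertain.

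The other Tmem26 probe set, 1434583_at, was dimmer. The wildtype arrays gave 3.40, 2.86 and 5.34 and the knockout arrays 6.63, 5.47 and 6.21, so that none of the 6 arrays exceeded 7. The means were 3.87 ± 1.30 and 6.10 ± 0.59 (SD, n = 3), 2.24 apart, with a gap of 0.13 between the nearest arrays of opposite genotype. With all values below 6 raised to 6, the difference shrank to 0.28 on this probe set and to 1.30 on 1435409_at. In both probe sets the wildtype array of number 3 was the highest of its genotype, by over 1 log2 unit on 1435409_at. Their values across the 6 arrays followed each other with Pearson's r of 0.98, and with r of 0.95 after the genotype means were taken off. Both probe sets therefore ordered the arrays within a genotype alike, apart from the shared difference. These correlations rest on 6 arrays that vary by number, and are descriptive.

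Lrrc2 was above the filter of 7 on every array with both probe sets. On 1427388_at the wildtype arrays gave 9.83, 9.32 and 9.79, and the knockout arrays 11.48, 10.51 and 10.63. The OC2-KO array of number 1 stood highest, and the other 2 were close to each other. The means were 9.65 ± 0.28 and 10.87 ± 0.53 (SD, n = 3), a difference of 1.22 ± 0.32 (SE) or 2.33-fold. The lowest OC2-KO array exceeded the highest wildtype array by 0.67.

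On 1453628_s_at, whose suffix in this array design marks probes shared by more than 1 transcript, Lrrc2 gave 10.29, 10.07 and 8.50 on the wildtype arrays and 11.97, 11.19 and 9.55 on the knockout arrays. Both arrays of number 3 were low, and the genotypes overlapped for that reason, since the OC2-KO array of number 3 lay 0.74 below the highest wildtype array. The means were 9.62 ± 0.98 and 10.90 ± 1.24 (SD, n = 3). The difference was 1.28 ± 0.70 (SE) or 2.43-fold, close to that of the first probe set but with a wider error. With the replicate number as a block the SE was 0.19, on 2 residual degrees of freedom. The differences within numbers, 1.68, 1.12 and 1.05, varied less than the levels did between arrays of a genotype. Leaving out the wildtype array of number 3 gave 0.72, leaving out the OC2-KO array of number 1 gave 0.75, and leaving out the OC2-KO array of number 3 gave 1.96. The low level on this probe set moved with the high Actb 3′ to 5′ difference of number 3, and the part of RNA breakdown in it was not tested. The first probe set of Lrrc2 was not low on those arrays.

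Pbxip1 was well above the filter in both genotypes and differed least. On 1460344_at the wildtype arrays gave 8.43, 8.68 and 8.84, and the knockout arrays 9.98, 9.55 and 9.37. The genotypes were separated by 0.53, more than the range of 0.41 within OC2-WT. The means were 8.65 ± 0.20 and 9.63 ± 0.32 (SD, n = 3), a difference of 0.98 ± 0.25 (SE) or 1.98-fold. On 1451132_at the wildtype arrays gave 9.26, 9.60 and 9.94 and the knockout arrays 10.45, 10.13 and 10.17, where a gap of 0.19 was smaller than the wildtype range of 0.68. Here the means were 9.60 ± 0.34 and 10.25 ± 0.17 (SD, n = 3), and the difference was 0.65 ± 0.25 (SE), or 1.57-fold. On both probe sets the array of number 1 was the lowest of OC2-WT and its partner the highest of OC2-KO.

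1700036A12Rik had the widest difference of the 7 probe sets, and its OC2-KO values were spread over 1.86, less than the 2.42 of Lrrc2 on 1453628_s_at. Its single probe set, 1431918_at, gave 4.45, 5.12 and 4.47 on the wildtype arrays and 7.79, 5.93 and 7.54 on the knockout arrays. A pair of OC2-KO arrays passed 7, and number 2 stayed below it. The means were 4.68 ± 0.38 and 7.09 ± 1.01 (SD, n = 3), a difference of 2.41 ± 0.50 (SE) or 5.31-fold, and the OC2-KO mean only just met the filter of 7. The lowest OC2-KO array was 0.82 above the highest wildtype array, which was also number 2. With a floor of 6 the difference was 1.11. As for Tmem26, the wildtype values are low enough that the size of the fold is uncertain.

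Within array numbers, the OC2-KO array exceeded its OC2-WT partner in 21 of 21 comparisons over the 7 member probe sets, where 10.3% of all kept probe sets were higher in all 3 numbers. The members were chosen by their higher OC2-KO intensity on these arrays, so the direction follows largely from the choice. Probe sets of the same gene are not independent either, and nothing is read from the count. The difference was widest in number 1 for all 7 probe sets. In number 1 it was 2.81 for Tmem26 (1435409_at), 1.64 for Lrrc2 (1427388_at), 1.55 for Pbxip1 (1460344_at) and 3.34 for 1700036A12Rik. In number 2 the same probe sets differed by 2.45, 1.18, 0.87 and 0.82, and in number 3 by 0.85, 0.84, 0.53 and 3.07. Number 3 gave the smallest difference for the 6 probe sets of Tmem26, Lrrc2 and Pbxip1, and number 2 for 1700036A12Rik. Over the 7 probe sets the median was 1.68, 1.12 and 0.85 in numbers 1, 2 and 3, while over all kept probe sets it lay between -0.025 and -0.0045. Number 3 is also the number with the high Actb 3′ to 5′ difference and with arrays of unlike sex, and the part of either was not tested. Without both arrays of number 3, Tmem26 on 1435409_at differed by 2.63 and Lrrc2 on 1427388_at by 1.41. Pbxip1 on 1460344_at then differed by 1.21 and 1700036A12Rik by 2.08. With all arrays these differences were 2.04, 1.22, 0.98 and 2.41. Leaving out number 3 removes the unlike sex and the high Actb difference together, so their parts cannot be told apart.

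**Figure D2:**
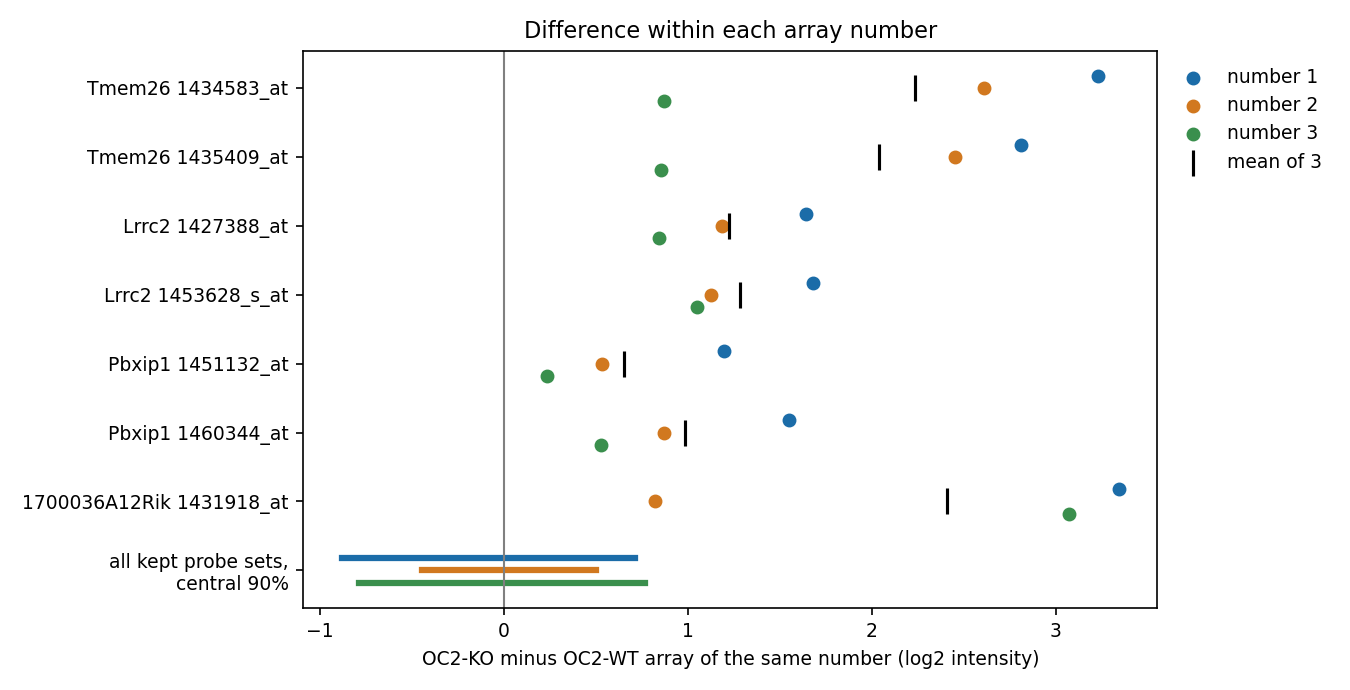
Difference between the OC2-KO and the OC2-WT array of the same number in log2 intensity (horizontal axis) for each member probe set (vertical axis), coloured by number, with black ticks for the mean of 3 and, in the bottom row, bars for the central 90% of all 21176 kept probe sets. Number 1 lies furthest right in all 7 rows, and number 3 furthest left except for 1700036A12Rik.

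How far the members varied together differed from one combination to the next. Between probe sets of different genes, r over the 6 arrays ran from 0.23 to 0.93, with a median of 0.84 over 18 combinations, a value that the shared difference between genotypes raises. After the genotype means were taken off, r ran from -0.48 to 0.76 with a median of 0.34. Within genes it was 0.95 for Tmem26, 0.83 for Pbxip1 and 0.36 for Lrrc2, the last being close to the median between genes. Tmem26 (1435409_at) and Pbxip1 (1451132_at) deviated together with r of 0.74, and Tmem26 and Lrrc2 (1427388_at) with r of 0.72. 1700036A12Rik followed Tmem26 on 1435409_at with r of 0.085 and the second probe set of Lrrc2 with 0.025. The lowest value joined Tmem26 on 1434583_at, high on the wildtype array of number 3, with Lrrc2 on 1453628_s_at, low on that array. These points share arrays, numbers and scaling, and no test was made of them.

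Each member was then set against 18707 kept probe sets of other named genes, by Pearson's r over the same 6 arrays, using its brightest probe set. Nearest to Tmem26 on 1435409_at were Gnb3, the cone transducin beta subunit gene (r = 0.99, differing by 0.53), Lrr1 (r = 0.99, differing by 0.66) and the zinc finger gene Myt1 (r = 0.97, differing by 0.28). Nearest to Lrrc2 on 1453628_s_at were the hyaluronidase gene Cemip2, Scaf11 and Srfbp1, all with r = 0.99 and with differences of 0.58, 0.39 and 0.38. This probe set was low on both arrays of number 3, and its mean of 10.2599 barely exceeded the 10.2595 of 1427388_at. The r between these Lrrc2 probe sets was 0.65, and nearest genes of 1427388_at were not sought, so the names hold for 1453628_s_at only. Pbxip1 on 1451132_at was nearest to Pcolce, whose product enhances procollagen processing, with r = 0.98 and a difference of 2.15. Next to Pcolce came the nuclear receptor gene Nr2f6 and the phosphatase subunit gene Ppp1r3f, with r of 0.97 and 0.96 and with differences of 0.23 each. For 1700036A12Rik they were the mitochondrial genes Tamm41 (r = 0.99, differing by 0.44) and Gtpbp3 (r = 0.98, differing by 0.55) and the solute carrier gene Slc37a3 (r = 0.98, differing by 0.34). None of these genes was nearest to more than 1 member. Except for Pcolce their differences were below those of the member they followed, which was itself chosen by its difference. Among these probe sets 9 to 44 had r above 0.95 with a member, and the names are a description.

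The nearest measured genes on either side of each member, with 0 to 8 annotated genes in between, were compared next. Their kept probe sets differed less than the member. Because the members were chosen by their higher OC2-KO intensity, that order follows from the choice, and nothing is read from it. Near Pbxip1, Pygo2, a Wnt pathway cofactor, differed by 0.016, the adaptor gene Shc1 by -0.35 and the mevalonate pathway gene Pmvk by 0.45. Pmvk stood higher by 0.93 and 0.42 in numbers 1 and 2 and by -0.0048 in number 3, and its genotypes overlapped. Near 1700036A12Rik, the RNA-binding protein gene Larp6 differed by -0.012 on 1418400_at, Lrrc49 by 0.085 on 1451173_at and Uaca by 0.26. The genes measured nearest to Tmem26 on one side lay beyond 6 and 7 others, and there Rhobtb1 differed by -0.14 on 1429206_at and A930033H14Rik by 0.38 and 0.33. Of these 9 kept probe sets none had separate genotypes, against 1.72% upwards and 1.56% downwards of all kept probe sets. At such shares 9 probe sets are too few for the count to be read. Limma called 0 of them after adjustment, as it did over all 21176 probe sets, nor did any pass an unadjusted p of 0.05.

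Lrrc2 had no kept neighbour. Its nearest measured genes, Tdgf1, Als2cl, Rtp3 and Ltf, were all below the filter of 7. Of their 5 probe sets, 1427533_at of Als2cl, a relative of the exchange factor alsin, differed the most, with a wildtype mean of 2.69, a knockout mean of 5.70 and all knockout arrays above the wildtype arrays. Without a filter, 1238 of 45037 probe sets had such a separation upwards. The other probe set of Als2cl, 1433769_at, differed by 0.21. Both probe sets were far below the filter, and they did not give the same difference.

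**Figure D3:**
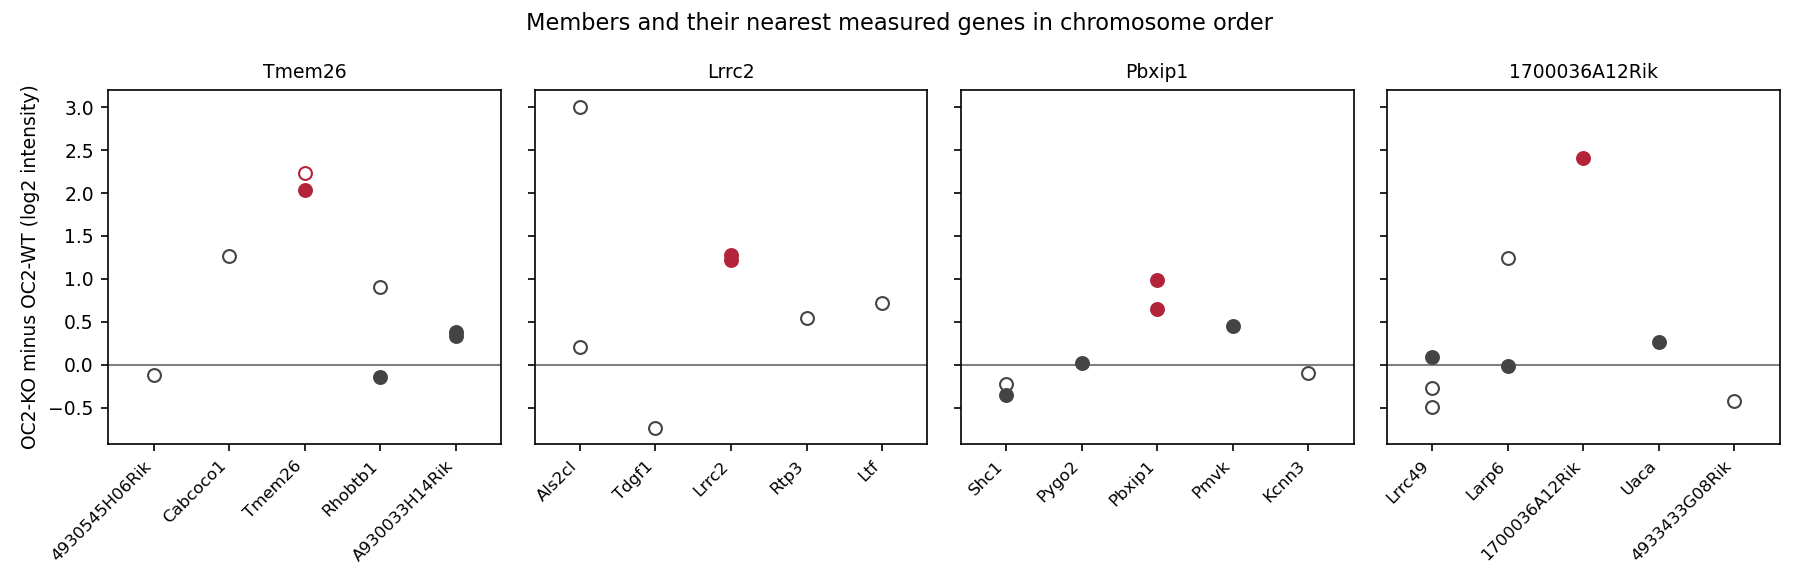
Difference between genotype means in log2 intensity (vertical axis, shared) for each member (red) and the 2 nearest measured genes on either side in chromosome order (grey), with a point for each probe set, filled where kept and open where below the filter. The kept neighbours lie between -0.35 and 0.45. The members were chosen on this difference, so their higher place is not a result.

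Genes known to work with or alongside the members were counted next, each by its brightest kept probe set. Over all 11065 genes so represented, 5397 were higher and 5668 lower, the median difference was -0.0048, and limma called 0 after adjustment, with 81 higher and 28 lower at an unadjusted p of 0.05. Of 10 measured partners of Pbxip1, namely PBX, MEIS and PREP homeodomain factors and oestrogen receptors, 8 were kept. Among the 8, 3 were higher and 5 lower, the median was -0.057, 0 passed in either direction, and 0 passed without adjustment. Values ran from -0.32 for Pknox2 to 0.28 for Meis3, and Pbx3, a PBX factor, differed by 0.19 ± 0.32 (SE). These differences were smaller than that of Pbxip1 on either probe set, which follows from Pbxip1 being chosen by its difference.

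Of the 52 other numbered LRRC genes, which share only the repeat and a naming scheme, 30 were kept, 18 higher and 12 lower, with a median of 0.042, none called at either threshold. Of the 30, 2 were separated upwards, as were 1.95% of all 11065 genes. Lrrc3 differed by -1.29 ± 0.68 (SE), Lrrc4, a synaptic adhesion gene, by -0.68 ± 0.50 and Lrrc19 by 0.70 ± 0.56. Lrrc3 passed the filter only through OC2-WT (7.06, against 5.76 in OC2-KO), so it could only count as lower. Lrrc19 passed only through OC2-KO (7.25, against 6.55 in OC2-WT), so it could only count as higher. No kept LRRC gene reached the difference of Lrrc2 upwards, but Lrrc2 was chosen by that difference, so nothing is read from this. Of 9 measured beige fat cell markers beside Tmem26, 7 were below the filter in both genotypes, Ucp1 among them, the uncoupling protein that defines heat-producing fat. The remaining genes were Slc27a1, a fatty acid transporter, and Klhl13, and for each the probe sets disagreed in sign. Slc27a1 differed by -0.34 on its brightest probe set and by 0.26 on the other. Klhl13 differed by 0.047 on its brightest and by -0.90 on the other, where the genotypes were separate. Of 15 striated muscle markers, chosen because Lrrc2 is a muscle transcript, 13 were below the filter, including the defining Ckm, Mb, Ttn and Myh4. Mylpf and Acta1 were kept at -0.30 and 0.38, and the summed intensity of both ran from 280.0 to 404 in OC2-WT and from 244 to 505 in OC2-KO.

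The tissue was retina by its markers, with all 8 measured rod genes, 6 bipolar and 7 ganglion cell genes kept. Müller glia genes, 12 of 12 kept, had a median difference of -0.029, with 6 higher and 6 lower, so the Müller glia list, unlike the other glial lists, was balanced around 0. Lists of other cells had medians further from 0. All 6 kept horizontal cell genes were lower, with a median of -0.50 and a summed intensity of 13846 to 16439 on wildtype arrays and 8449 to 12138 on knockout arrays. Without OC2-KO replicate 1 the median was -0.28, and without the filter it was -0.50. Onecut1, with the largest drop, passed the filter only through OC2-WT (7.36, against 5.56 in OC2-KO), so it could only count as lower. Calb1 (-0.76) and Septin4 (-0.57) had separate genotypes, against a background downwards of 1.56% of kept probe sets and 1.83% of genes, and the study picked both from these arrays. All 6 kept microglia and macrophage genes were higher, with a median of 0.53, and of 0.53 again without the filter. Their summed intensity was 2446 to 2909 on wildtype arrays and 3326 to 4119 on knockout arrays. Aif1, P2ry12, Itgam and Cd68 were below the filter. Tmem119 passed it only through OC2-KO (7.02, against 6.18 in OC2-WT), so it could only count as higher. Reactive glia genes were higher in 7 of 9, with a median of 0.90, sums of 9220 to 12916 and of 10483 to 18233, and a median of -0.11 in number 3. Without OC2-KO replicate 2 the reactive glia median was 0.39. Gfap (1.40) and Cd44 (1.08) are in that list and, like the microglial gene Tyrobp (1.05), in the study's tables of these arrays, and Gfap and Vim are also in the astrocyte and Müller glia lists. Separate genotypes upwards were found for Gfap, Cd44 and Tyrobp, against 1.95% of all genes. No gene of any list passed adjustment. The part of these cells in the higher level of the members was not tested.

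Lens genes, 9 of 10 kept, had a median of 0.91 with -0.54, 0.94 and 2.40 in numbers 1, 2 and 3, and sums of 5312 to 57588 and of 31578 to 48067 for wildtype and knockout arrays, a spread in which the genotypes overlapped. Mip (5.30 in OC2-WT, 7.58 in OC2-KO) and Bfsp1 (6.19 and 7.23) passed the filter only through OC2-KO and could only count as higher. Lim2 (7.24 and 6.90) passed only through OC2-WT and could only count as lower. Without OC2-WT replicate 3 the lens median was -0.0062, without OC2-WT replicate 1 it was 1.72, and without both arrays of number 3 it was 0.13. With a floor of 6 it was 0.58. Pigment epithelium genes had a median of -0.39 over 8 kept, with summed intensities of 24638 to 86381 and of 14318 to 70115, again overlapping. Both tissues lie next to the retina in the eye. The lens median was furthest from 0 in number 3. The part of lens or pigment epithelium tissue in the members' differences was not tested. Astrocyte genes had a median of 0.24 (5 kept), endothelial genes 0.11 (5 kept), smooth muscle and pericyte genes 0.15 (3 kept), rod genes 0.072 (8 kept), bipolar genes -0.28 (6 kept) and ganglion cell genes -0.054 (7 kept). None of the 3 measured blood genes was kept.

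**Figure D4:**
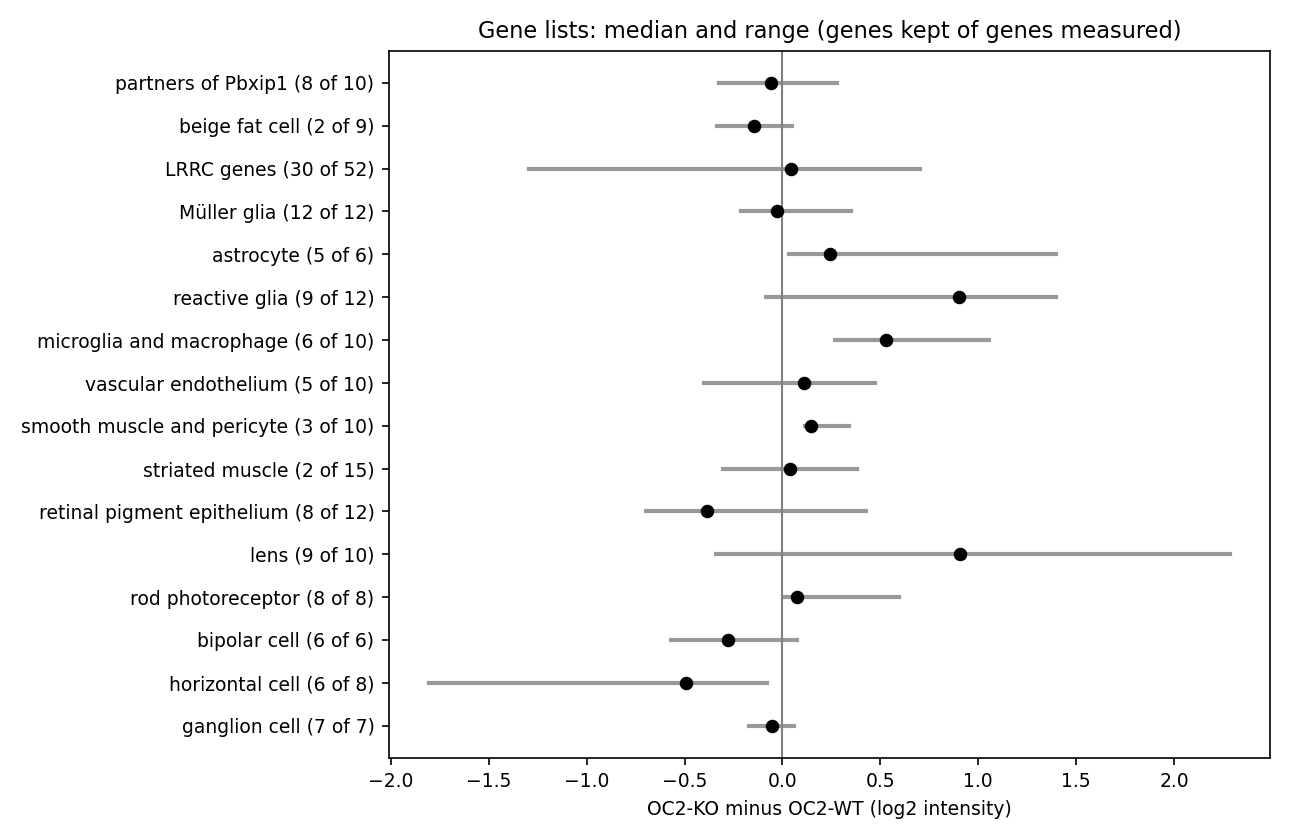
Median (black point) and range (grey bar) of the difference between genotype means in log2 intensity (horizontal axis) over the kept genes of each list (vertical axis), each gene by its brightest probe set. The partners of Pbxip1 and the LRRC genes centre near 0, at -0.057 and 0.042, while reactive glia, at 0.90, and horizontal cells, at -0.50, lie to opposite sides.

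**Figure D5:**
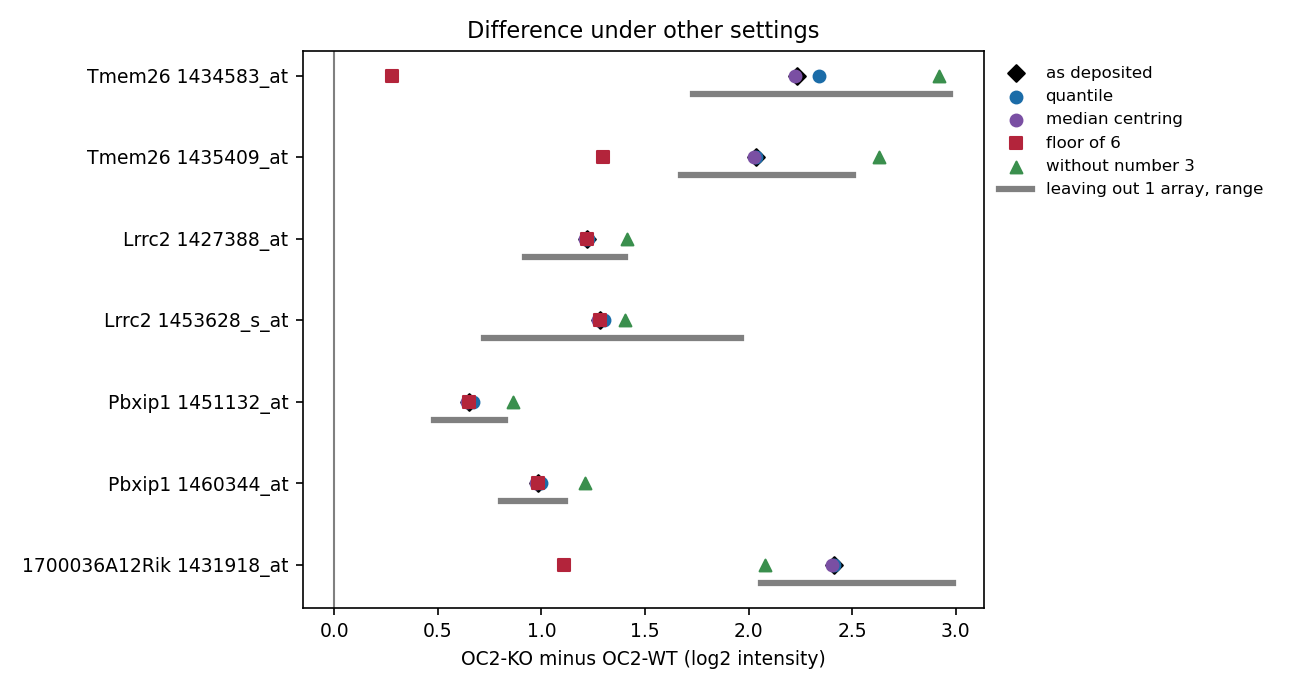
Difference between genotype means in log2 intensity (horizontal axis) for each member probe set (vertical axis) as deposited, after quantile normalization, after median centring, with a floor of 6 and without both arrays of number 3, with grey bars for the range when any 1 array was left out. All values stay above 0, and the floor of 6 moves Tmem26 and 1700036A12Rik, the dimmest members, and no Lrrc2 or Pbxip1 probe set.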

How the data were processed

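RNA from 6 adult retina samples was measured on Affymetrix mouse arrays of 45101 probe sets, 1 array per sample. The authors deposited linear intensity values, which they background-adjusted and scaled with MAS5 (version not given in the sources used here) to a 2% trimmed mean of 500. A change shared by all genes therefore cannot be seen. Detection calls were not used here. The median intensity was 94.9 to 110 per array, and the number of arrays limits precision.

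After log2 transformation and removal of 64 control probe sets, probe sets with a mean above 7 in either genotype were kept, as in the study's methods. Limma 3.58.1 in R 4.3.3 (lmFit, eBayes, no block) was fitted across all kept probe sets with Benjamini-Hochberg adjustment at 0.05, two-sided, and was tested on simulated data. Groups came from sample titles. Named genes were all probe sets of the members, Onecut2, the 2 nearest measured genes on either side, the 3 genes with the highest Pearson correlation, and up to 3 genes per list by p. Klhl13, Pbx3 and the markers below the filter are list members, and Als2cl was described after its values were seen. Members and lists were chosen with earlier results of these data known, and the study's tables of the same arrays hold Lrrc2, Pbxip1 and 1700036A12Rik. Gene symbols came from the platform annotation, and 34754 of 34945 probe sets with 1 symbol matched the GRCm38.p6 gene table by gene number, which was used for names and gene order. After genotype means were taken off, arrays of the same number had r of 0.576, 0.590 and 0.585 for numbers 1, 2 and 3. On these values the numbers pair the arrays. Arrays of unlike number had r of -0.429 to -0.135. Taking off a mean of 3 arrays pushes these values below 0, so they add no separate evidence. The labels do not state a shared litter. Alternatives were quantile normalization, median centring, a floor of 6, no filter or a filter at 8, the replicate block, an intensity trend, the methods' t-test, averaging all probe sets per gene, and leaving out each array or number 3.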

Additional observations from a re-analysis of the deposited data

How the results depend on the processing

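All 77 recomputed differences of the 7 member probe sets, under 11 settings each, stayed above 0, and 74 moved by less than the SD between arrays. The other 3 came with the floor of 6, which gave 0.28 and 1.30 for Tmem26 on 1434583_at and 1435409_at and 1.11 for 1700036A12Rik, by construction, since their wildtype values lie mostly below 6. Leaving out 1 array moved Lrrc2 on 1453628_s_at to 0.72 (wildtype array 3 left out), 0.75 (knockout array 1 left out) and 1.96 (knockout array 3 left out), and no other member by over 1.5 times. The replicate block leaves each difference as it is. It raised the count of probe sets at an unadjusted p of 0.05 from 209 to 887, with 0 after adjustment. No filter gave 1144 and a filter at 8 gave 127. Leaving out 1 array gave 209 to 560, the highest without OC2-KO replicate 2. No setting gave a probe set past adjustment.

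Probe sets with separate genotypes numbered 364 higher and 330 lower, 268 and 437 after median centring, 1238 and 982 without a filter, and 217 lower with a filter at 8. With fewer arrays separation is easier: leaving out 1 array gave 950 to 1591 higher and 786 to 1697 lower, and without number 3 they were 1743 and 2134. Of 196 recomputed list medians 30 moved by more than the SD over the numbers. Of 14 lists with 3 or more kept genes, 9 had a median that changed sign under some setting. For the partners of Pbxip1 these were no filter (0.056), OC2-KO array 1 left out (0.058) and OC2-WT array 2 left out (0.067), and for the LRRC genes OC2-WT array 3 left out (-0.013) and number 3 left out (-0.018). Over the 14 settings tried for each list, medians ran from -0.12 to 0.12 for Müller glia, -0.15 to 0.11 for ganglion cells, -0.19 to 0.48 for rods, -0.22 to 0.42 for endothelium, -0.056 to 0.65 for smooth muscle, -0.78 to 0.20 for pigment epithelium and -0.0062 to 1.72 for lens. The other 5 kept their sign, at 0.061 to 0.37 for astrocytes (lowest without OC2-KO array 2), -0.33 to -0.16 for bipolar cells (nearest 0 without OC2-KO array 1), -0.65 to -0.28 for horizontal cells, 0.40 to 0.66 for microglia and 0.39 to 1.25 for reactive glia. The cause was not tested.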
